A study of Mus musculus with 16 samples.

Results

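The Arp2/3 complex subunits were the rows of the table named Actr2, Actr3, Arpc1a, Arpc1b, Arpc2, Arpc3, Arpc4, Arpc5 and Arpc5l, chosen by name and not by value, 9 of the 13015 genes listed. RNA was measured in NIH/3T3 cells, an immortalized mouse embryonic fibroblast line, in a protrusion fraction (Ps) and a cell body fraction (CB), after transfection with control siRNA (siControl) or with siRNAs against Apc (siAPC), which encodes the tumor suppressor adenomatous polyposis coli. All 4 groups (CB and Ps of siControl cells, CB and Ps of siAPC cells, 4 libraries each) shared the same handling: serum-starved cells sat for 2 h on filters with 3.0 µm pores, met lysophosphatidic acid (LPA, an attractant) from below for 1 h, and were fixed for 10 min in 0.3% paraformaldehyde. By the methods, Ps came from 3 filters and CB from 1 filter, and the line was not authenticated. The comparisons asked whether subunit RNAs were concentrated in protrusions, and whether this changed when Apc was lowered.

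The Arp2/3 complex binds the side of an existing actin filament and starts a new filament from it as a branch, and branched networks of this kind push the membrane forward in lamellipodia of migrating fibroblasts. Arp2 and Arp3, encoded by Actr2 and Actr3, resemble actin and form the first subunits of the new filament, while the ARPC subunits hold them together and bind the mother filament. WASP family proteins activate the complex, and mammals carry alternative genes for the ARPC1 and ARPC5 positions, so that complexes of different composition exist in one cell.

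Deposited values were log2 CPM, where CPM is the reads of a gene relative to the size of its library, scaled between libraries by the authors. The 16 libraries held 13466225 to 20296087 reads in listed genes, and a member held between 609 and 10889 reads in a library. Apc itself was lower with siAPC in every library of the same fraction, by limma log2 fold changes of -1.67 (SE 0.25, adjusted p = 0.000142) in CB and -1.84 (SE 0.25, adjusted p = 3.11e-05) in Ps, and no library was without Apc reads (29 to 269). All 8 fibroblast markers were listed, with summed levels of 34896.1 to 38287.5 CPM in siControl CB and 21725.9 to 23901.7 CPM in siControl Ps, although Thy1 had only 0.1 to 0.9 CPM. Of 5 epithelial markers 2 were listed, Krt14 (255.0 to 385.6 CPM in all 16 libraries) and Cdh1 (1.5 to 3.0 CPM), and Epcam was not. Of 5 haematopoietic markers Cd68 was listed (3.6 to 6.4 CPM), of 3 endothelial markers Pecam1 (0.0 to 0.7 CPM), and of 4 muscle and neural markers Des (7.4 to 14.6 CPM). The part of cells with such markers in the members' values was not tested. In each group 1 library (replicate 3 of siControl CB, replicate 2 of the other groups) had lower values for GC-rich genes (Spearman correlation over 10238 genes of -0.65 to -0.52, against -0.04 to 0.54 in the other 12 libraries), and results are given with and without these 4 where they changed. In these bulk extracts fewer cells or protrusions and less RNA in each cannot be told apart, and a level is always relative to the other RNAs of its library.

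The genes lie on 5 chromosomes of GRCm38 (mm10). Arpc2 (chromosome 1, 74236084 to 74268209, plus strand), Actr3 (chromosome 1, 125392905 to 125435727, minus strand) and Arpc5 (chromosome 1, 152766542 to 152775597, plus strand) share chromosome 1. Arpc1a (145083830 to 145108761) and Arpc1b (145114215 to 145130705) are neighbours on the plus strand of chromosome 5, which also carries Arpc3 (122391878 to 122414184, plus strand). Arpc4 lies on chromosome 6 (113378115 to 113390448, plus strand), Arpc5l on chromosome 2 (39005348 to 39015877, plus strand) and Actr2 on chromosome 11 (20062304 to 20112913, minus strand).

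Because the paralogs were compared with each other, their sequences were examined for stretches in which reads could be assigned to the wrong gene. The coding sequences of Arpc1a and Arpc1b were identical at 74.5% of 1098 aligned bases, and those of Arpc5 and Arpc5l at 71.3% of 450 aligned bases. The longest identical run was 21 bases in both pairs, and 0 stretches of 50 bases were shared. The windows of 126 bases in which each pair is most alike are printed in lower case, with the bases that differ between paralogs in capitals (coding strand, 5′ to 3′, GENCODE M21 transcripts). Each window spans 2 exons: Arpc1a chr5:145096247-145097313, Arpc1b chr5:145123764-145124684, Arpc5 chr1:152771418-152774262 and Arpc5l chr2:39013777-39015060, all on the plus strand.
Arpc1a: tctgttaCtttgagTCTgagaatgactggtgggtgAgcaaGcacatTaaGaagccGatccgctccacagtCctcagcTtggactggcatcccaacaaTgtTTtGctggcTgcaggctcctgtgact
Arpc1b: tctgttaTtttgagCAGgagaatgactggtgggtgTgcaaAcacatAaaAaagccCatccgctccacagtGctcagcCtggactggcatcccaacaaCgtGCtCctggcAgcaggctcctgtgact
Arpc5: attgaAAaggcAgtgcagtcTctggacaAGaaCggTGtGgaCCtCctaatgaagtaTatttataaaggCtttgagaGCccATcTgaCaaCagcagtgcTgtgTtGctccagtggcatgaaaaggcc
Arpc5l: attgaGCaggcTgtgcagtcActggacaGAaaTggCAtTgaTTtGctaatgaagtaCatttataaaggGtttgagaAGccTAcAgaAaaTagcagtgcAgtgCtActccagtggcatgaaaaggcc
Even here, 16 of 126 bases separated Arpc1a from Arpc1b and 25 of 126 separated Arpc5 from Arpc5l. Other genes shared more with the members than the paralogs did. Of the stretches of 50 bases in Actr3 transcripts, 25.4% also occurred in the listed pseudogene Gm8822, which held only 1 to 11 reads per library. For Arpc4, 10% of the stretches lay in the overlapping gene Ttll3 (30 to 189 reads), and for Arpc1b 7.38% lay in other genes. By position, 1189 exonic bases of Arpc4 lie within the span of Ttll3 on the same strand, where counting by strand cannot separate the genes. For Arpc5l, 62 exonic bases lie within the listed gene Wdr38 on the same strand and 62 within the listed gene Rpl35 on the opposite strand. In addition, 1190 exonic bases of Arpc1b lie opposite Pdap1 (1219 to 2882 reads). Strand-specific counting is not given in the sources used here, so a part of the Arpc1b value could belong to Pdap1.

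In siControl cells the subunit RNAs were modestly higher in Ps than in CB. All 9 members were called higher (limma, adjusted p below 0.05 over all genes) against 29.1% of all genes, and 0 were called lower against 31.2%. Their log2 fold changes ran from 0.16 to 0.72 with a median of 0.51, or 1.42-fold, beside a median of -0.001 over all genes tested. Arpc1b, Arpc1a, Arpc3 and Arpc2 had the highest values and Actr3 the lowest. For 6 of 9 members every Ps library lay above every CB library, as it did for 24% of all genes. Since 60.3% of genes passed in one direction or the other, a call by itself says little, and the sizes are given for each member. The count was sensitive to the processing: 5 of 9 were called higher when libraries were scaled to total listed reads, which moved the median of all genes to -0.30 (15.4% of all genes higher and 47.6% lower), and 5 of 9 when a trend with GC content and transcript length was removed from each library (28.9% higher and 26% lower). Arpc1a, Arpc1b, Arpc2 and Arpc5 were the 4 members called in every alternative fit and in each fit that left out 1 library.

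**Figure D1:**
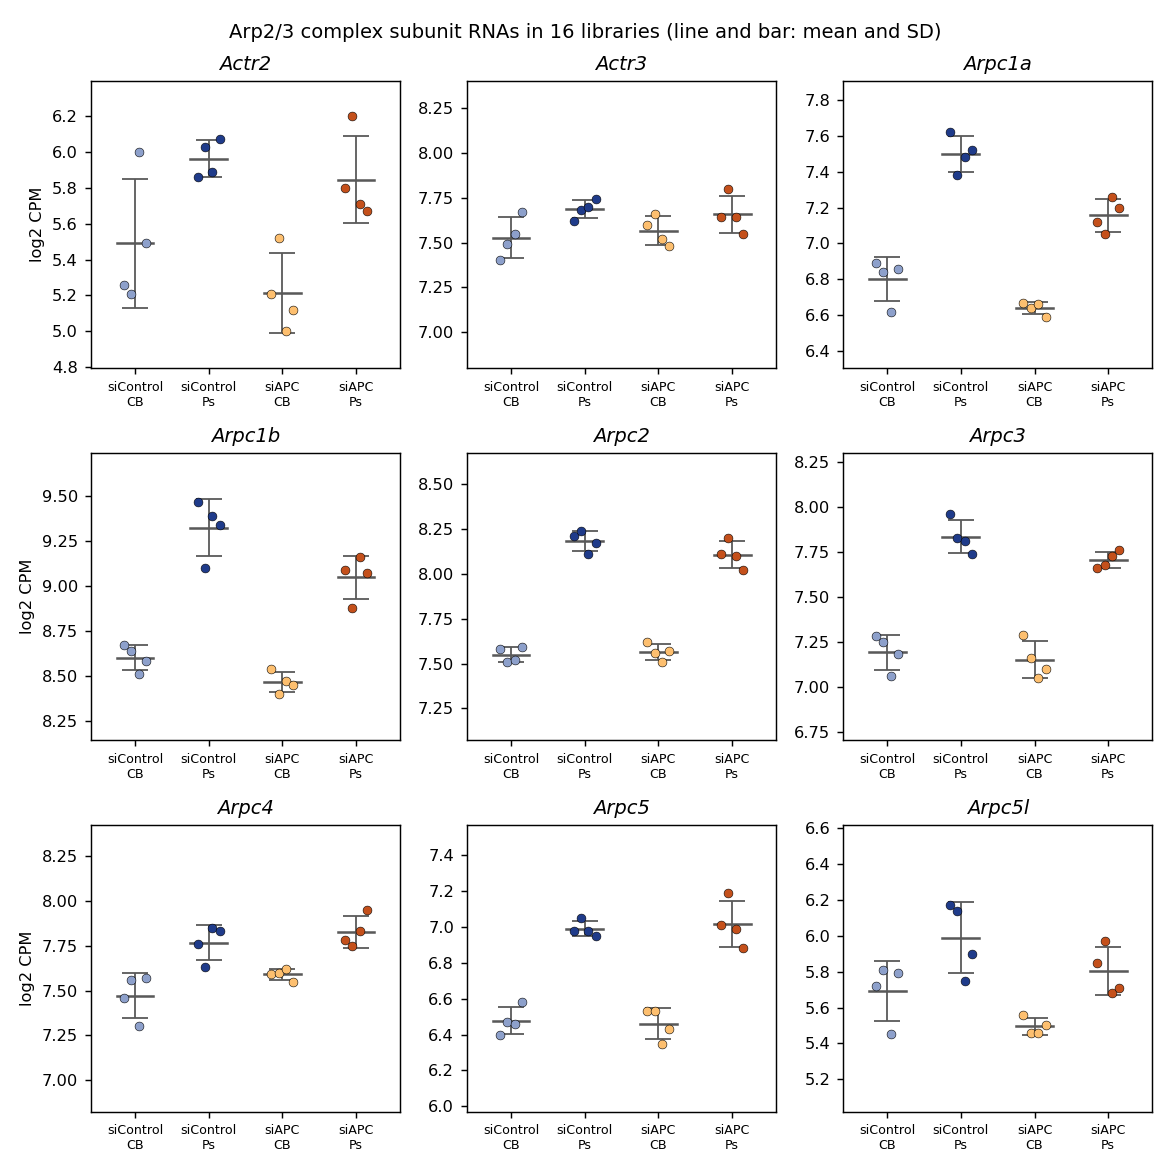
Each panel plots 1 member, with log2 CPM on a linear axis spanning the same range of log2 units in every panel. Points are the 4 libraries of each group, lines the means and bars the SD. For Arpc1a, Arpc1b, Arpc2, Arpc3, Arpc4 and Arpc5 every Ps library lay above every CB library of the same siRNA.

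Actr2 encodes Arp2. In siControl CB its log2 CPM was 5.26, 5.21, 6.0 and 5.49 in replicates 1 to 4, and in siControl Ps it was 5.86, 6.03, 5.89 and 6.07. The groups overlapped, since replicate 3 of CB lay above the 2 lowest Ps libraries. That library is among the 4 with a GC trend, and Actr2 has the lowest GC content of the members (40.3%), but the part of the trend in its value was not tested. The log2 fold change was 0.47 (SE 0.15, adjusted p = 0.0109), and without that library it was 0.64 (SE 0.12, adjusted p = 0.000218). The call was lost under total-read scaling, with 0.17 (adjusted p = 0.417), and after removal of the GC and length trend, with 0.09 (adjusted p = 0.354).

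Actr3 encodes Arp3, the other actin-like subunit. Its values were 7.40, 7.49, 7.55 and 7.67 in siControl CB, and 7.62, 7.68, 7.70 and 7.74 in siControl Ps. The Ps values exceeded CB in 4 of 4 replicate numbers, but the groups overlapped. The labels do not say whether libraries of the same number are pairs, so counts by replicate number, here and below, are a description only. The log2 fold change was 0.16 (SE 0.07, adjusted p = 0.0433), or 1.12-fold. This call was lost in 9 of 16 fits that left out 1 library (adjusted p = 0.0512 to 0.152), namely replicate 1 or 2 of siControl CB, 2, 3 or 4 of siControl Ps, 1 or 3 of siAPC CB, and 1 or 3 of siAPC Ps, and the value was -0.14 under total-read scaling and again -0.14 after removal of the GC and length trend. With a value of 0.16 it was also not called without an intensity trend in the fit (adjusted p = 0.0649), under quantile normalization (adjusted p = 0.0918) or with only the 8 libraries of the comparison (adjusted p = 0.0819), so that it was called in 5 of 10 alternative fits.

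Arpc1a and Arpc1b encode alternative forms of the ARPC1 subunit, a propeller-shaped protein that takes part in binding the activators. Arpc1a had 6.89, 6.84, 6.62 and 6.86 in siControl CB and 7.62, 7.38, 7.48 and 7.52 in siControl Ps. Arpc1b had 8.67, 8.64, 8.51 and 8.58 in siControl CB and 9.47, 9.10, 9.39 and 9.34 in siControl Ps. No Ps library overlapped a CB library for either gene. The log2 fold changes were 0.69 (SE 0.07, adjusted p = 4.96e-08) for Arpc1a and 0.72 (SE 0.07, adjusted p = 1.1e-07) for Arpc1b, which corresponds to 1.62-fold and 1.65-fold. Across the alternative fits Arpc1a ran from 0.40 to 0.71 and Arpc1b from 0.43 to 0.96. Pdap1, which overlaps Arpc1b on the other strand, was itself higher in Ps, with a log2 fold change of 1.00, and its part in the Arpc1b value was not tested.

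Arpc2 and Arpc4 encode the pair that forms the core of the complex and contacts the mother filament. Arpc2 had 7.58, 7.51, 7.52 and 7.59 in siControl CB and 8.21, 8.24, 8.11 and 8.17 in siControl Ps, with a gap between the groups that was wide beside the SD of 0.05 or less. Its log2 fold change was 0.64 (SE 0.05, adjusted p = 5.11e-09), and it was 0.34 under total-read scaling and 0.19 (adjusted p = 0.000411) after removal of the GC and length trend. Arpc4 changed less, from 7.46, 7.56, 7.30 and 7.57 in CB to 7.76, 7.63, 7.85 and 7.83 in Ps. The groups did not overlap and the log2 fold change was 0.29 (SE 0.07, adjusted p = 0.000964), which fell to -0.0032 (adjusted p = 0.968) under total-read scaling. Ttll3, whose exons overlap Arpc4 on the same strand, went the other way (log2 fold change -0.83).

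Arpc3 encodes the small subunit next to Arp3, and the study used its RNA as an example of a diffuse RNA. That use was in in situ hybridization of cells on gels or glass. The study also states that RNAs for subunits of this complex showed no significant localization in its system. Ratios of Ps to CB fractions are a different measure and do not test the imaging result. Arpc3 values were 7.28, 7.25, 7.06 and 7.18 in siControl CB and 7.96, 7.83, 7.81 and 7.74 in siControl Ps, without overlap. The log2 fold change was 0.65 (SE 0.07, adjusted p = 7.82e-08), or 1.56-fold, on the deposited scaling. It was 0.35 under total-read scaling and 0.03 (adjusted p = 0.679) after removal of the GC and length trend. Rhoa, which the study also used as a diffuse RNA and which encodes a GTPase that drives contractility, had 0.46 (SE 0.06, adjusted p = 2.53e-06).

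Arpc5 and Arpc5l encode alternative forms of the ARPC5 subunit, which tethers Arp2 to the rest of the complex. Arpc5 had 6.40, 6.47, 6.46 and 6.58 in siControl CB and 6.98, 7.05, 6.98 and 6.95 in siControl Ps, without overlap. Arpc5l had 5.72, 5.81, 5.45 and 5.79 in CB and 6.17, 6.14, 5.75 and 5.90 in Ps, with overlap. By replicate number, Ps was higher in 4 of 4. The log2 fold changes were 0.51 (SE 0.07, adjusted p = 1.91e-06) for Arpc5 and 0.30 (SE 0.10, adjusted p = 0.0109) for Arpc5l. Arpc5 remained called with 0.21 (adjusted p = 0.0216) under total-read scaling and 0.22 (adjusted p = 0.000925) after removal of the GC and length trend. Leaving out the 4 GC-trend libraries gave Arpc5l a value of 0.17 (adjusted p = 0.0963). Its call was also lost under total-read scaling, with 0.0037 (adjusted p = 0.974), and after removal of the GC and length trend, with 0.20 (adjusted p = 0.14).

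**Figure D2:**
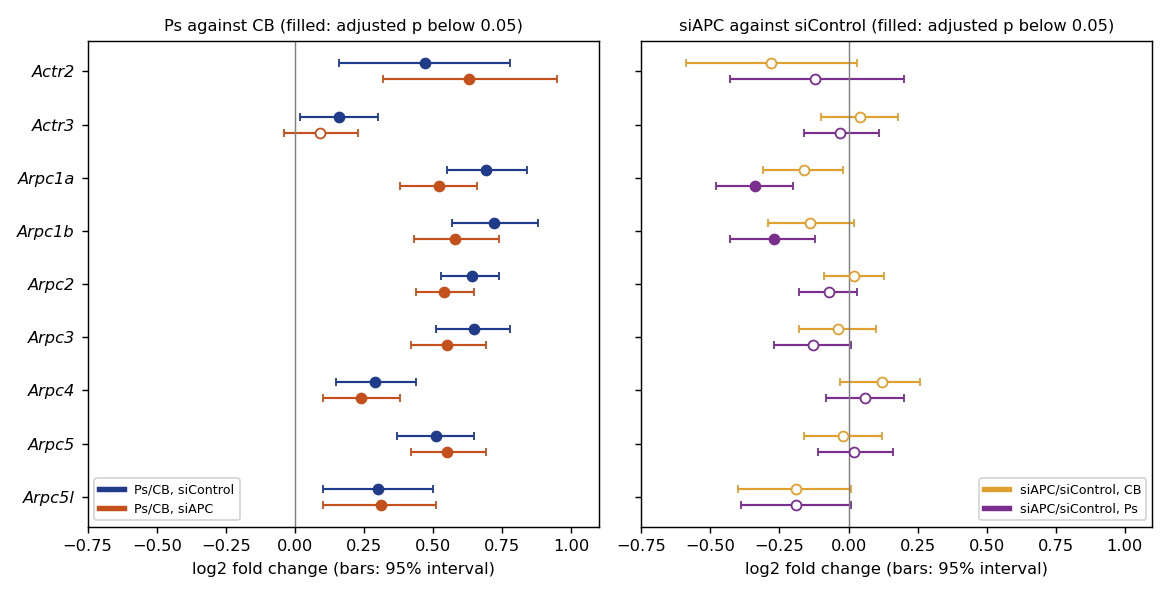
The left panel plots the limma log2 fold change of Ps against CB in siControl and siAPC, and the right panel that of siAPC against siControl in CB and Ps. Bars are 95% intervals and filled points have an adjusted p below 0.05. On the left, 17 of 18 points are filled and Actr3 lies nearest 0. On the right, only Arpc1a and Arpc1b in Ps are filled.

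None of the members reached the study's rule for Ps-enriched RNAs, more than 2-fold higher in Ps with p below 0.05. With p taken here before adjustment, 7.19% of all genes met it in siControl and 7.67% in siAPC. With the fold change lowered to 1.5, which 17% of all genes met in siControl, 4 of 9 members passed: Arpc1a, Arpc1b, Arpc2 and Arpc3. In siAPC 1 of 9 passed, Actr2, against 17.8% of all genes. This count rests on values close to the limit: it was 3 without replicate 1 of siAPC CB (Actr2, Arpc1b and Arpc3), 0 without replicate 3 of siAPC CB and 2 without replicate 4 of siAPC Ps (Actr2 and Arpc5), and without replicate 2 of siAPC Ps it was Arpc1b that passed and not Actr2. Several other measures moved with the fraction. Across genes, which are not independent, the Ps/CB log2 fold change in siControl had a Spearman correlation of -0.27 with exon union length and -0.34 with GC content (12875 genes), and 5 of 9 members were below the median of all genes in exon union length and 6 of 9 in GC content. With the longest coding transcript as the length the correlation was again -0.27 (11484 genes), and 8 of 9 members were below the median. The summed level of the nuclear RNAs Malat1 and Neat1 was 642.8 to 892.4 CPM in siControl CB and 126.5 to 308.2 CPM in siControl Ps, and the mitochondrial share was 1.37% to 1.95% in CB and 2.18% to 4.16% in Ps over both siRNAs. In siControl, Des was at 7.4 to 9.8 CPM in CB and 11.1 to 14.6 CPM in Ps, and Cd68 at 4.4 to 6.4 CPM in CB and 3.6 to 4.1 CPM in Ps, so that these markers of other cell types also moved without overlap. The part of these RNAs in the members' values was not tested.

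**Figure D3:**
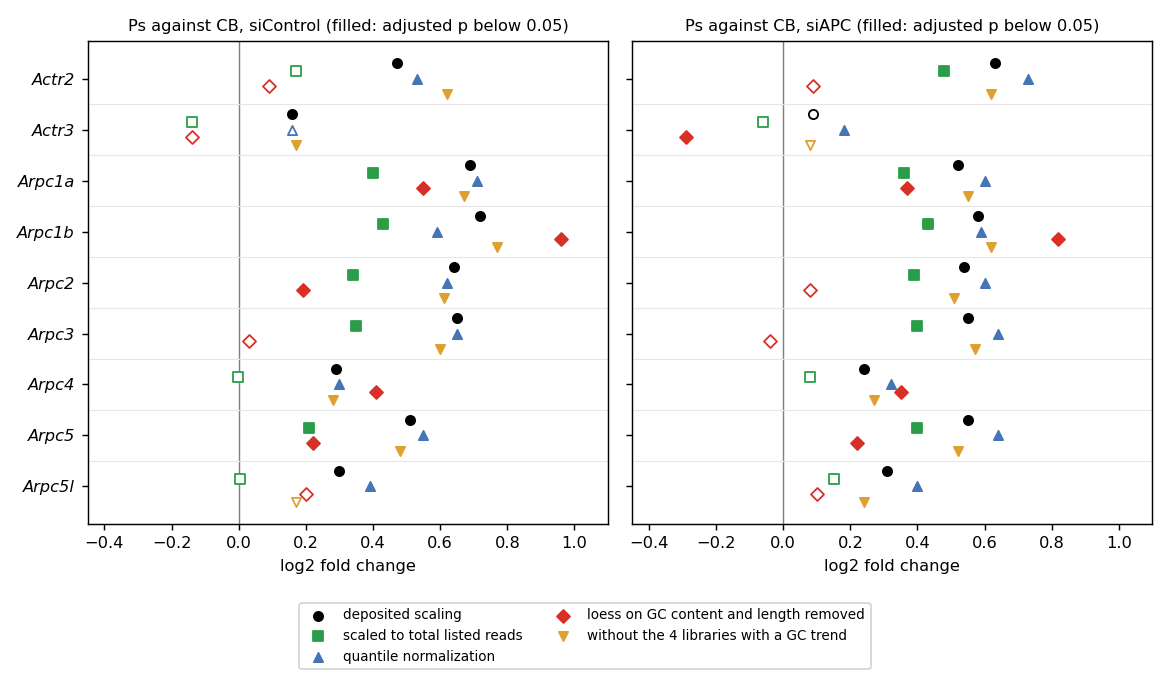
The log2 fold change of Ps against CB is plotted for each member under the deposited scaling and 4 other settings, in siControl (left) and siAPC (right), with filled symbols for an adjusted p below 0.05. Arpc1a, Arpc1b and Arpc5 are filled under all 5 settings in both panels, while Actr2, Arpc3 and Arpc5l are open in both panels once the GC and length trend is removed.

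With siAPC, 8 of 9 members were called higher in Ps than in CB, against 29.8% of all genes, and 0 were lower, against 30.9%. The median log2 fold change was 0.54 and the range 0.09 to 0.63, beside a median of 0.015 over all genes. On the deposited scaling Actr2 had the highest value, at 0.63 (SE 0.15, adjusted p = 0.0012), with 5.21, 5.52, 5.00 and 5.12 in CB and 5.80, 6.20, 5.71 and 5.67 in Ps, and no overlap. After removal of the GC and length trend it had 0.09 (adjusted p = 0.328) and was not called. Actr3 was the member that did not pass, at 0.09 (SE 0.07, adjusted p = 0.231), with 7.60, 7.66, 7.52 and 7.48 in CB and 7.64, 7.80, 7.64 and 7.55 in Ps. Its 95% interval, from -0.04 to 0.23, ended at a 1.17-fold higher level in Ps. Under quantile normalization it was called, at 0.18 (adjusted p = 0.0495), and all 9 members then passed, against 30.3% of all genes. For the other 8 members every Ps library lay above every CB library, as it did for 28.2% of all genes. In siAPC the nuclear RNAs were at 422.0 to 571.9 CPM in CB and 104.8 to 238.1 CPM in Ps. The listed epithelial markers summed to 376.1 to 387.3 and 298.3 to 334.5 CPM. Cd68 was at 5.0 to 6.4 and 3.7 to 4.3 CPM, and Des at 8.4 to 9.8 and 10.7 to 14.2 CPM, all without overlap. The Ps/CB log2 fold change had a Spearman correlation of -0.44 with GC content and -0.23 with exon union length. The part of these measures in the members' values was not tested.

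On the deposited scaling the 7 ARPC genes had positive values in siAPC. Arpc1b had 0.58 (SE 0.07), with 8.54, 8.40, 8.47 and 8.45 in CB and 9.09, 8.88, 9.16 and 9.07 in Ps. Arpc1a had 0.52 (SE 0.07), with 6.67, 6.64, 6.66 and 6.59 in CB and 7.12, 7.05, 7.26 and 7.20 in Ps. Arpc5 had 0.55 (SE 0.07) and Arpc3 0.55 (SE 0.07). The Arpc3 libraries ran from 7.05 to 7.29 in CB and from 7.66 to 7.76 in Ps, and the Arpc5 libraries from 6.35 to 6.53 and from 6.88 to 7.19. Arpc2 had 0.54 (SE 0.05), while Arpc5l, with 0.31 (SE 0.10), and Arpc4, with 0.24 (SE 0.07), were again the lowest of the ARPC genes. The adjusted limma p of these 7 ran from 4.58e-08 for Arpc2 to 0.00986 for Arpc5l. After removal of the GC and length trend 4 of 9 members were called higher (Arpc1a, Arpc1b, Arpc4 and Arpc5) and Actr3 was called lower, at -0.29 (adjusted p = 0.000935), where 25.7% of all genes were higher and 25% lower. In that setting the calls of Arpc2, at 0.08 (adjusted p = 0.107), and Arpc5l, at 0.10 (adjusted p = 0.465), were lost. Arpc3 turned to -0.04 (adjusted p = 0.657) and was not called. Under total-read scaling 6 of 9 were called higher (21.5% of all genes), and Actr3, Arpc4 and Arpc5l were not.

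The study expressed the effect of the siRNA on localization as log2(Diff FC), the Ps/CB log2 fold change in siAPC minus that in siControl. None of the 9 members had a different ratio by limma (0 higher against 0% of all genes, and 0 lower against 0.0231%), and 0 of 9 had an unadjusted p below 0.05, also with voom weights, against 3.78% of all genes. The largest decrease was that of Arpc1a, at -0.18 (SE 0.10, unadjusted p = 0.0793, adjusted p = 0.981), with a lower ratio in 4 of 4 replicate numbers. Its 95% interval ran from -0.38 to 0.02. Arpc1b had -0.14 (95% interval -0.36 to 0.08) and Arpc3 -0.09 (-0.28 to 0.10). The interval was widest for Actr2, from -0.28 to 0.61 around 0.17, a value that fell to -0.01 without replicate 3 of siControl CB. Differences within these intervals were not detectable, and the values do not show that the ratios were equal. Arpc1b, Arpc2, Arpc3, Arpc4 and Actr3, all negative on the deposited scaling, turned positive under total-read scaling, which raised the median of all genes by 0.14.

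Levels were then compared between siRNAs within each fraction, using the same libraries as above. The summed fibroblast markers were higher with siAPC, at 45613.0 to 50226.2 CPM in CB and 26729.4 to 29150.8 CPM in Ps, and the nuclear RNAs in CB were lower, at 422.0 to 571.9 CPM, without overlap with the siControl ranges. The 2 listed epithelial markers summed to 376.1 to 387.3 CPM in CB with siAPC and 260.9 to 347.3 CPM with siControl, again without overlap. Their part in the members' values was not tested. In Ps, both genes of the ARPC1 subunit were lower with siAPC, and these were the 2 of 9 members called lower, against 11.2% of all genes. None was called higher, against 10.7%. The siControl Ps and siAPC Ps values of Arpc1a listed above did not overlap (7.38 to 7.62 against 7.05 to 7.26). Its log2 fold change was -0.34 (SE 0.07, adjusted p = 0.00113), or 0.79 of the siControl level, and it was lower in 4 of 4 replicate numbers. Arpc1b went from a mean of 9.32 ± 0.16 (SD, n = 4) to 9.05 ± 0.12 (SD, n = 4), and the highest siAPC library, 9.16, lay above the lowest siControl library, 9.10. Its log2 fold change was -0.27 (SE 0.07, adjusted p = 0.0123). Under total-read scaling, where the median of all genes rose by 0.16, Arpc1a had -0.18 and was still called, whereas Arpc1b had -0.11 (adjusted p = 0.171) and Arpc4 became higher, at 0.22 (adjusted p = 0.012), beside 22.6% of all genes higher and 4.23% lower. On the deposited scaling Pdap1 had 0.12 for siAPC against siControl in Ps (adjusted p = 0.138).

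The other 7 members did not pass the test in Ps. Arpc5l had -0.19 (SE 0.10, adjusted p = 0.176), lower in 4 of 4 replicate numbers, and Arpc3 had -0.13 (SE 0.07, adjusted p = 0.172). Arpc2 had -0.07 with a 95% interval from -0.18 to 0.03. Actr2, Actr3, Arpc4 and Arpc5 had -0.12, -0.03, 0.06 and 0.02. In CB, 0 of 9 members were called by limma in either direction, also with voom weights, against 7.52% of all genes called higher and 5.87% lower, and 1 of 9 had an unadjusted p below 0.05, against 26.4% of all genes. This was Arpc1a, at -0.16 (SE 0.07, unadjusted p = 0.0259, adjusted p = 0.124). Without replicate 3 of siControl CB its value was -0.23 (adjusted p = 0.0172). Arpc1b had -0.14 in CB (SE 0.07, adjusted p = 0.271) and was lower in 4 of 4 replicate numbers. Under quantile normalization both were called in CB, Arpc1a at -0.17 (adjusted p = 0.0183) and Arpc1b at -0.15 (adjusted p = 0.0387), against 6.53% of all genes lower. The same held after removal of the GC and length trend, with -0.21 (adjusted p = 0.00767) and -0.22 (adjusted p = 0.0111), against 14.3%. Without the 4 GC-trend libraries Arpc1a was called, at -0.23 (adjusted p = 0.00973), and Arpc1b was not (adjusted p = 0.0875). Arpc5l was also called in that setting, at -0.26 (adjusted p = 0.0478), against 8.51% of all genes lower. Thus both ARPC1 genes had negative values in both fractions, as did Actr2, Arpc3 and Arpc5l on the deposited scaling. Whether the ARPC1 genes were called in CB depended on the setting. The difference between fractions is the log2(Diff FC) given above, which did not pass.

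A single scaling factor per library cancels in the difference between alternative subunits, whereas a correction that depends on a gene's level, GC content or length does not. On the deposited values Arpc1b exceeded Arpc1a by 1.78, 1.79, 1.89 and 1.72 log2 units in siControl CB and by 1.85, 1.72, 1.91 and 1.82 in siControl Ps. In siAPC the difference was 1.87, 1.76, 1.80 and 1.86 in CB and 1.96, 1.84, 1.90 and 1.86 in Ps. All groups overlapped, so that Arpc1b carried 3.29 to 3.90 times the reads of Arpc1a in each of the 16 libraries, before correction for length. The 4 comparisons of this pair gave changes of 0.03 to 0.07 (exact two-sided permutation p of 0.143 to 0.6). After removal of the GC and length trend the difference was instead higher in Ps than in CB by 0.41 in siControl and 0.45 in siAPC, without overlap (exact permutation p = 0.0286 for both), while quantile normalization gave -0.12 and -0.01 (exact permutation p = 0.0857 and 0.714). Quantile normalization also made it higher with siAPC than with siControl in Ps by 0.13, without overlap (exact permutation p = 0.0286), where the deposited values gave 0.07 with overlap.

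Arpc5 exceeded Arpc5l by 0.68, 0.67, 1.01 and 0.80 in siControl CB and by 0.81, 0.91, 1.23 and 1.05 in siControl Ps. With siAPC the difference was 0.96, 1.07, 0.89 and 0.94 in CB and 1.17, 1.22, 1.30 and 1.17 in Ps. Only the siAPC groups did not overlap, and the difference was higher in Ps than in CB by 0.25 (exact two-sided permutation p = 0.0286, the smallest that 4 against 4 libraries can give). It was higher in Ps in 4 of 4 replicate numbers also in siControl, by 0.21 (exact permutation p = 0.114), and higher with siAPC by 0.21 in Ps and 0.18 in CB (exact permutation p = 0.114 for both). After removal of the GC and length trend the Ps to CB changes of this pair were 0.02 in siControl and 0.12 in siAPC (exact permutation p = 0.914 and 0.143). Adjusted over the 8 tests of both pairs, the lowest p was 0.229 on the deposited values and 0.114 under either of these settings, and no test passed. With 4 against 4 libraries 1 test alone cannot go below 0.229 after this adjustment, and 5 of the 8 would have to reach the smallest p to pass, so the missed threshold says little about the balance of alternative subunits, whose changes depended on the processing.

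**Figure D4:**
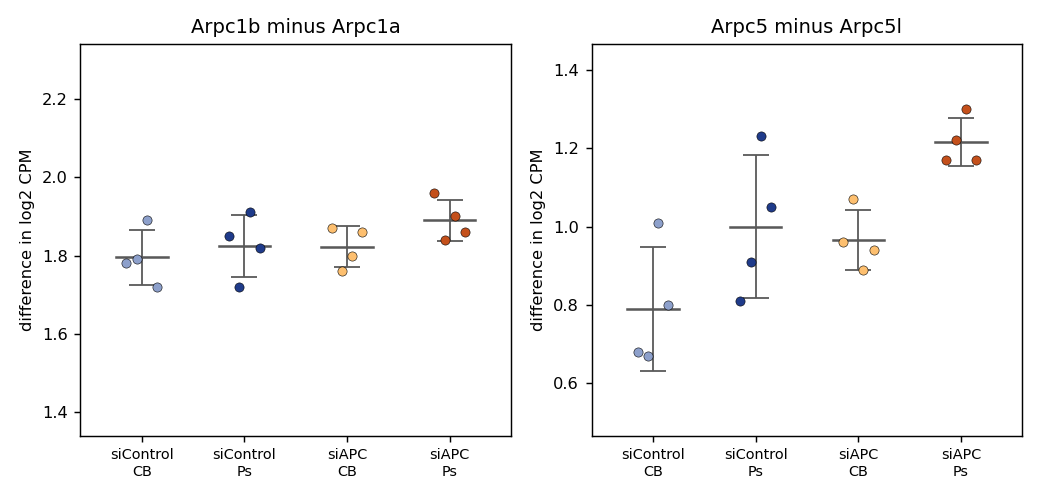
The difference in deposited log2 CPM between alternative subunits is plotted for each library, with the mean and SD of each group, on axes of equal span. Arpc1b minus Arpc1a stays between 1.72 and 1.96, whereas Arpc5 minus Arpc5l runs from 0.67 to 1.30 with siAPC Ps uppermost.

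The 2 actin-like subunits were not evenly represented. Actr2 minus Actr3 was -2.14, -2.28, -1.54 and -2.18 in siControl CB and -1.76, -1.66, -1.81 and -1.67 in siControl Ps. In siAPC it was -2.39, -2.14, -2.52 and -2.36 in CB and -1.84, -1.60, -1.93 and -1.89 in Ps. This pair was chosen after its values were seen and was not tested. Relative to the mean of the other 8 members, Ps minus CB was -0.38 for Actr3 with siControl and -0.40 with siAPC, -0.22 and -0.23 for Arpc4, and -0.22 and -0.16 for Arpc5l. It was -0.03 and 0.21 for Actr2 and positive with both siRNAs for the other 5.

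For a comparison of levels between genes, reads on the deposited scaling were divided by exon length (log2 RPKM). By the union of exons, in siControl CB Arpc2 was highest at 6.52 ± 0.04 (SD, n = 4), above Arpc4 (6.26 ± 0.13) and Arpc1b (6.25 ± 0.07), which overlapped each other. Arpc3 followed at 5.73 ± 0.10, above Arpc1a (5.44 ± 0.12), Actr3 (5.32 ± 0.11) and Arpc5 (5.29 ± 0.07), neighbours that overlapped. Arpc5l (3.52 ± 0.16) and Actr2 (3.11 ± 0.36) were lowest and overlapped. Actr2 was last and Arpc2 first in all 4 groups by this length. The order depended on the gene model. With the longest coding transcript Arpc3, whose transcript of 899 bases is short beside its exon union of 2762, came first at 7.34 ± 0.10, and Arpc5l rose to 5.27 ± 0.16, next to Arpc5 at 5.54 ± 0.07. Actr2 was again last in all 4 groups, at 3.63 ± 0.36 in siControl CB. By the longest transcript, a non-coding one for Arpc5l, Arpc5l was also at 3.63 in siControl CB and lay below Actr2 in both Ps groups, with overlap. Levels of Arpc3 and Arpc5l per length, and the last place of Actr2, thus depend on the choice of transcript.

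**Figure D5:**
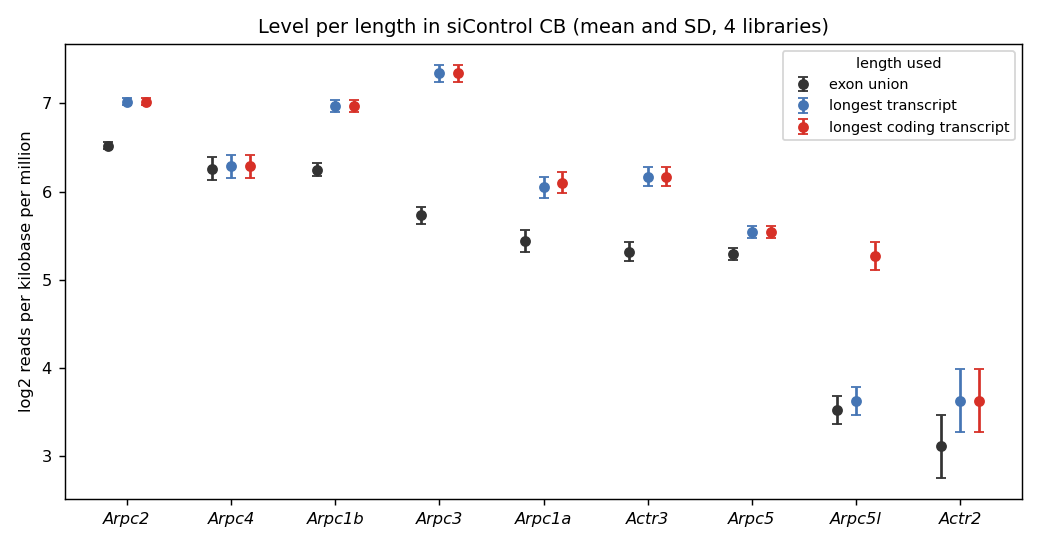
Mean log2 RPKM in siControl CB, with SD over 4 libraries, by 3 definitions of gene length (exon union, longest transcript, longest coding transcript). Arpc3 moves from 5.73 to 7.34 and Arpc5l from 3.52 to 5.27 between the exon union and the longest coding transcript, and Actr2 has the lowest level by both, while by the longest transcript Actr2 and Arpc5l are level at 3.63.

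Over all 16 libraries the profiles of the members were compared by Pearson correlation, as a description, since all points share the 4 groups. Arpc1a and Arpc1b were most alike (0.983), followed by Arpc2 and Arpc5 (0.974). The median correlation of a member with the other 8 was highest for Arpc3 (0.854) and lowest for Actr3 (0.531). After group means were removed the medians ran from -0.309 for Actr2 to 0.294 for Arpc2, while Actr3 and Arpc5 had 0.822 and Arpc1a and Arpc1b 0.796, so that most of the likeness lay between groups. The RNAs whose profile was most like the mean of the 9 members, out of 6310 with a mean log2 CPM of at least 4, were Tpm4 (0.992), Ndufb3 (0.992), Ywhaq (0.991), Cops3 (0.991) and Rpl7 (0.99). Tpm4 encodes a tropomyosin, Ndufb3 a subunit of respiratory complex I, Ywhaq a 14-3-3 protein, Cops3 a subunit of the COP9 signalosome and Rpl7 a ribosomal protein.

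Other genes of the pathway were taken from lists of activators, their partners, upstream GTPases and adaptors, inhibitors, formins and further actin-related proteins, of which 54 of 64 matched a row. In siControl, 24 of the 54 were higher in Ps, where 29.1% of all genes were, and 10 were lower, where 31.2% of all genes were, with a median log2 fold change of 0.22. The counts by role are a description of few genes each, to be read against the same shares. The WAVE complex partners, which link Rac to the activator WAVE, had 4 of 6 higher and 0 lower (median 0.31), and the WASH complex, an activator on endosomes, 3 of 5 higher and 0 lower (median 0.40). The 6 activators that bind the complex themselves had 1 higher and 1 lower (median -0.10). Of 12 GTPases and adaptors 6 were higher and 4 lower, of 7 inhibitors and debranching factors 3 and 2, of 10 formins, which elongate unbranched filaments, 4 and 2, and of 7 other actin-related proteins 3 and 1. Actr3b, a second gene for Arp3, had 0.15 (adjusted p = 0.5).

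By the rule for naming, the 3 highest were Diaph3 (a formin), Gmfb (glia maturation factor, which removes branches) and Fnbp1l (an adaptor that binds curved membrane). Gmfb rose from 4.56 ± 0.23 (SD, n = 4) in CB to 5.57 ± 0.20 in Ps, a log2 fold change of 1.02 (SE 0.13, adjusted p = 1.87e-06). Diaph3 had 1.29 (SE 0.25) and Fnbp1l 0.81 (SE 0.17). The value of Diaph3 rests on low levels, 0.18 ± 0.47 in CB and 1.47 ± 0.42 in Ps. Its mean log2 CPM over all libraries was 1.13, near the limit of 1 for naming. The 3 lowest were Actr5, a subunit of a chromatin remodeler, at -0.87 (SE 0.10), Pick1, a PDZ protein, at -0.82 (SE 0.07) and Baiap2, the adaptor IRSp53, at -0.61 (SE 0.06). With siAPC 22 of 54 were higher in Ps (29.8% of all genes) and 14 lower (30.9% of all genes). Diaph3 (1.66, SE 0.25), Gmfb (1.12, SE 0.13) and the adaptor Nck1 (1.04, SE 0.19) were highest, and Actr5 (-0.86, SE 0.10), Coro7, a coronin of the Golgi (-0.66, SE 0.08), and Pick1 (-0.64, SE 0.07) lowest.

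Between siRNAs the counts were near the shares of all genes. In CB, 4 of 54 were higher and 2 lower, against 7.52% and 5.87% of all genes, and in Ps 5 were higher and 8 lower, against 10.7% and 11.2%. In CB, Abi3, a WAVE complex partner, rose from 0.11 ± 0.17 (SD, n = 4) to 1.73 ± 0.29, a log2 fold change of 1.61 (SE 0.17, adjusted p = 2.53e-06), the formin Fmnl2 had 1.05 (SE 0.20) and the adaptor Fnbp1 0.33 (SE 0.05). Cyfip1, a WAVE complex subunit that binds Rac, had -0.32 (SE 0.07) and Coro7 -0.30 (SE 0.08). In Ps, Abi3 had 1.44 (SE 0.17), Fmnl2 1.29 (SE 0.20) and Diaph3 0.81 (SE 0.25), while Coro7 had -0.54 (SE 0.08), the coronin Coro1b -0.51 (SE 0.09) and the coronin Coro1a -0.45 (SE 0.16, adjusted p = 0.0486). At 2 decimals Coro1a was level with Cyfip1 (-0.45, SE 0.07, adjusted p = 8.64e-05) and the formin Diaph1 (-0.45, SE 0.08, adjusted p = 0.000425). Of the 7 inhibitors and debranching factors, all 4 genes called with siAPC in Ps were coronins and were lower (median -0.29 over the 7), beside 11.2% of all genes lower and 10.7% higher, and nothing particular to this list was tested. The log2(Diff FC) was called for 0 of 54 genes by limma, and 3 had an unadjusted p below 0.05, against 3.78% of all genes, all with a negative value.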

How the data were processed

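The 9 members and the lists of pathway genes and markers were chosen with earlier results of these data known. The authors sequenced paired reads of stranded libraries, aligned them to mm10 with STAR (2.4.2a), counted them per gene and normalized them with limma-voom (limma 3.26.1, per the submitters' processing notes). The deposited values are log2 CPM, with 0.5 added to the reads, in 1 table of 13015 genes and 16 libraries. Inverting that formula gave whole reads (within 0.01) for 208240 of 208240 values.

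The fit used limma (3.58.1, R 4.3.3), with 1 mean per group over all 16 libraries, empirical Bayes with an intensity trend, and Benjamini-Hochberg adjustment over 13015 genes. Called means an adjusted p below 0.05. The methods call the replicates independent, and p-values measure the spread between these libraries. Alternative subunits were compared by exact permutation tests (Python 3.11.15, SciPy 1.17.1). Annotation and sequences came from GENCODE M21 (GRCm38), which matched 12875 genes (98.9%), 449 of them by an older symbol; the authors used an older release. The loess was fitted on GC content and the longest transcript, which for Arpc5l is a non-coding one. All members were named, and pathway genes if called, with a mean of at least 1, and among the 3 highest or 3 lowest of a contrast. Same-numbered siAPC CB and Ps libraries deviated together (correlations of 0.416 to 0.617), as did siControl and siAPC Ps libraries (0.162 to 0.551), which the labels do not explain. For siControl CB and Ps this held for replicates 1 and 4 (0.337 and 0.432) and not for 2 and 3 (-0.121 for both), and for siControl and siAPC CB also for 1 and 4 only. Members' p-values were not adjusted over the members alone.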

Additional observations from a re-analysis of the deposited data

How the results depend on the processing

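Brackets give the share of all genes called the same way. Scaled to total listed reads, 5 members were higher in Ps in siControl (15.4%), and with siAPC in Ps 1 was higher (22.6%) and 1 lower (4.23%). With the loess on GC content and length removed, 5 were higher in Ps in siControl (28.9%), 4 higher (25.7%) and 1 lower (25%) in siAPC, and 2 were lower with siAPC in CB (14.3%). That last count was also 2 under quantile normalization (6.53%, Arpc1a and Arpc1b) and 2 when the 4 GC-trend libraries were left out (8.51%, Arpc1a and Arpc5l). Leaving out 1 library gave 0 to 1 lower with siAPC in CB, with 1 when replicate 3 of siControl CB was left out (7.69%). A fold change of 1.5 gave 4 Ps-enriched members in siControl (17%) and 1 in siAPC (17.8%). At an unadjusted p below 0.05, 6 pathway genes were higher and 5 lower with siAPC in CB (26.4% of all genes in either direction). In Ps 5 were higher and 11 lower (33.2% in either direction). The log2(Diff FC) was higher for 0 and lower for 3 (3.78% in either direction). With the replicate block, 9 members were higher in Ps in siControl (30.5%) and 8 in siAPC (31.4%). With siAPC 2 were lower in Ps (13.5%) and 0 in CB (7.36%), so the block changed no call of a member. The sign-flip test of paired numbers cannot go below 0.125 for the subunit differences, which the block left at 0.21 and 0.25 for Arpc5 minus Arpc5l. Signs turned for these members, none called but Actr3 at -0.29. Under total-read scaling Ps against CB was -0.14 for Actr3 and -0.0032 for Arpc4 in siControl and -0.06 for Actr3 in siAPC. Under the same scaling siAPC against siControl was 0.0026 for Arpc5 in CB and, in Ps, 0.05 for Actr2, 0.14 for Actr3, 0.09 for Arpc2 and 0.03 for Arpc3, and log2(Diff FC) was 0.08 for Actr3, 0.0027 for Arpc1b, 0.05 for Arpc2, 0.05 for Arpc3 and 0.09 for Arpc4. With the loess removed, Ps against CB was -0.14 for Actr3 in siControl, and -0.29 for Actr3 and -0.04 for Arpc3 in siAPC, siAPC against siControl in Ps was -0.02 for Arpc4 and -0.01 for Arpc5, and log2(Diff FC) was -0.005 for Arpc5 and -0.10 for Arpc5l. Quantile normalization gave 0.04 for Actr3 in Ps between siRNAs and a log2(Diff FC) of 0.03 for Actr3 and 0.01 for Arpc4. Without the 4 libraries Arpc5 in Ps was -0.01 and the log2(Diff FC) of Actr2 -0.0015. Leaving out 1 library gave, between siRNAs, -0.0018 to 0.09 for Actr3, -0.0017 to 0.04 for Arpc2 and -0.04 to 0.02 for Arpc5 in CB, and -0.07 to 0.01 for Actr3 and -0.03 to 0.07 for Arpc5 in Ps, and for log2(Diff FC) -0.01 to 0.27 for Actr2, -0.10 to 0.0038 for Arpc4, -0.01 to 0.09 for Arpc5 and -0.08 to 0.08 for Arpc5l. The cause of these turns was not tested. The level by longest coding transcript and 2 settings for the subunit differences were added after the data were seen. Arpc1b minus Arpc1a then changed from CB to Ps by -0.12 in siControl under quantile normalization, and with the loess removed by 0.41 in siControl and 0.45 in siAPC, while Arpc5 minus Arpc5l in siAPC changed by 0.12 with the loess removed. The members with the fewest reads were Actr2 and Arpc5l (at least 609 and 794 in each library). They also had the widest errors (SE 0.15 and 0.10 for Ps against CB in siControl, against 0.05 to 0.07 for the others). The SE of Actr2 was 0.08 without the 4 GC-trend libraries and 0.07 with the loess removed, and that of Arpc5l 0.09 and 0.11. The part of read number or GC trend in these errors was not tested. The 95% intervals of log2(Diff FC) spanned 0 for all 9.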

Other observations

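Correction for GC content and transcript length by loess moved the members apart. The Ps/CB log2 fold change of Arpc1b rose from 0.72 to 0.96 in siControl and from 0.58 to 0.82 in siAPC, and that of Arpc4 from 0.29 to 0.41 and from 0.24 to 0.35. These 2 genes have the highest GC content of the members (52.5% and 53.1%). The values of the other 7 members became lower with both siRNAs, those of Arpc3 from 0.65 to 0.03 and from 0.55 to -0.04. This comparison was made after the values were seen and was not tested. No library stood apart by Dixon's test in any of the 36 sets of 4 member values or the 8 sets of 4 subunit differences.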
